A study of Arabidopsis thaliana with 12 samples.

Results

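The transcriptomes of det1-1 and pifq were set against each other gene by gene, to describe which effects of losing DET1 were also seen on losing PIFs and which were not. For each gene the log2 fold of det1-1 over dark wild type was computed, the log2 fold of pifq over dark wild type was subtracted from it, and the result is called the difference. A positive difference means that a gene stood higher in det1-1 than in pifq, relative to wild type. Genes entered where each mutant's table listed them once, all 4 columns used were above 0 and one reached 1 FPKM (sequenced fragments, normalised to transcript length and to library size). Their dark wild type levels also had to lie within 1.5-fold between the tables after median scaling. These conditions left 14257 of the 31916 genes named in either table.

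The groups were 4-day-old seedlings of the det1-1 mutant grown in darkness, of the pifq mutant grown in darkness, and of wild type (Col) grown in darkness, with 3 libraries each per the labels. Dark-grown wild type given 6 h of white light formed a further group, which is cited here only for levels of single genes. The labels name the genotypes as det1-1 and pifq; det1-1 is known as a partial loss-of-function allele, and pifq as the quadruple mutant of PIF1, PIF3, PIF4 and PIF5. RNA came from whole seedlings, so a change in the share of a tissue and a change in RNA per cell cannot be told apart. The tables hold a single FPKM value per gene and group, so no value has a replicate check, no spread can be given and the depth is unknown. "Higher" and "lower" therefore mean a fold of at least 2, and no test was possible. Both mutants were compared with the same dark wild type libraries, so their folds share that denominator. Where wild type levels are given as a pair, the first is from the det1-1 table and the second from the pifq table, which were normalised separately.

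Seedlings in darkness normally follow skotomorphogenesis, with a long hypocotyl, an apical hook, closed cotyledons and plastids that wait for light. DET1 acts in the nucleus with COP10 and DDB1, alongside the COP1 ubiquitin ligase, to hold back light development; among the factors that COP1 removes in darkness is HY5, a bZIP activator of light-induced genes. PIFs, of the bHLH family, accumulate in darkness, repress genes of chlorophyll synthesis and photosynthesis, and activate growth genes. Loss of either system gives seedlings that look partly light-grown in darkness.

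The targeted genes were read first. PIF3 was 14.6 FPKM in det1-1 and 0.802 FPKM in pifq, against 28.1 and 30.2 FPKM in dark wild type. PIF5 was 31.5 FPKM in det1-1 and 1.39 FPKM in pifq, against 8.96 and 9.44 FPKM in dark wild type. PIF1 was 16.1 FPKM in det1-1 and 23.7 FPKM in pifq, against 15.8 and 19.2 FPKM in dark wild type, and PIF4 was 33.2 FPKM in det1-1 and 20.9 FPKM in pifq, against 10.4 and 20.5 FPKM in dark wild type. The transcripts of PIF3 and PIF5 were thus low in the library labelled pifq, and those of PIF1 and PIF4 were not. The place of each lesion was not given in the sources used here, so a level over the whole gene does not show whether those transcripts are intact, and "pifq" below means the library so labelled. PIF4 was outside the set, because its dark wild type level differed between the tables. Of the 8 genes of the PIF family 6 were compared, and PIL1, PIF3, PIF5 and PIF6 passed 2-fold in the difference upward. PIF7 was higher in both, at 10.5 FPKM in det1-1 and 4.61 FPKM in pifq, against 0.422 and 0.330 FPKM in dark wild type. DET1 was 16.7 FPKM in det1-1 and 18.7 FPKM in pifq, against 15.1 and 15.6 FPKM in dark wild type, a level that does not test the det1-1 label.

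Over all 14257 genes the median difference was 0.01, with quartiles at -0.39 and 0.51 on the log2 scale. The difference reached 2-fold upward, towards det1-1, in 1831 genes (12.8%) and downward, towards pifq, in 958 genes (6.72%). These shares are the background for the counts of each list below. Against dark wild type, 2426 genes (17%) were higher and 1391 (9.76%) lower in det1-1, while 1851 (13%) were higher and 1931 (13.5%) lower in pifq. Of the 2426 genes higher in det1-1, 1404 (57.9%) lay within 2-fold of pifq, 945 (39.0%) were at least 2-fold above it and 77 (3.17%) at least 2-fold below it. Of the 1391 genes lower in det1-1, 991 (71.2%) lay within 2-fold of pifq, 298 (21.4%) were at least 2-fold below it and 102 (7.33%) at least 2-fold above it. These splits use the det1-1 value on both sides, so they lean towards det1-1 being the more extreme. Folds past 2-fold in opposite directions were seen in 162 genes (1.14%) that were higher in det1-1 and lower in pifq, and in 25 genes (0.175%) of the reverse pattern.

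**Figure D1:**
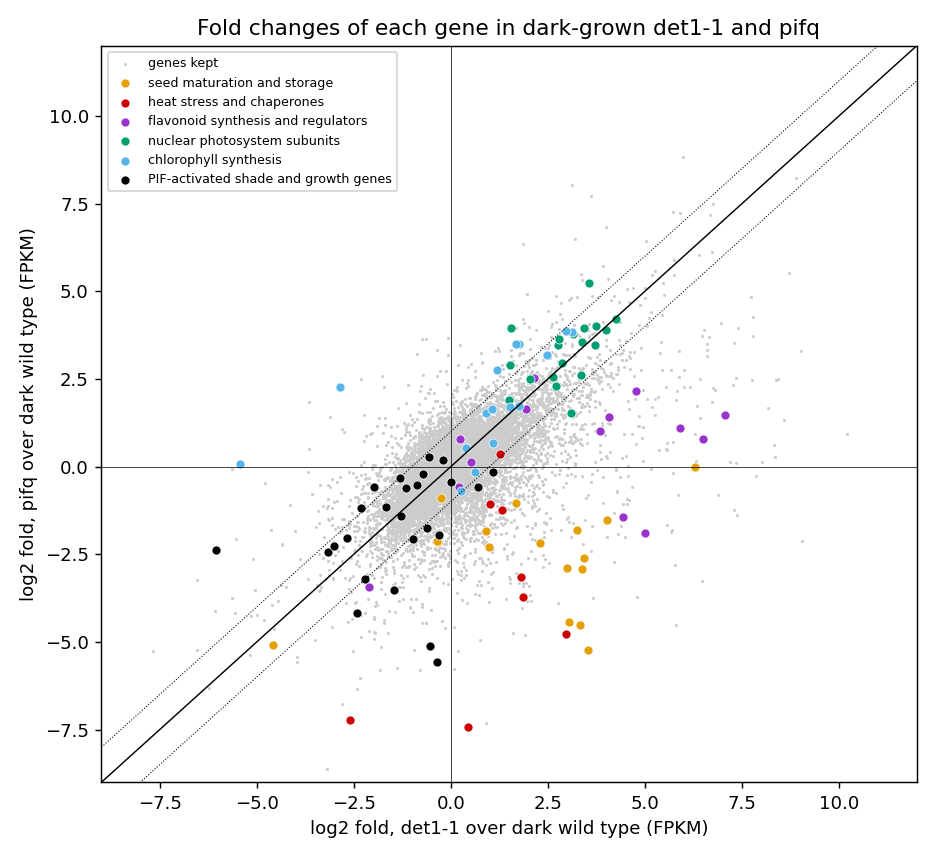
Log2 fold of det1-1 over dark wild type (x axis) against that of pifq over dark wild type (y axis) for 14257 genes, with the genes of 6 lists coloured; the solid line marks equal folds and the dotted lines a 2-fold difference. Photosystem subunits lie along the line in the upper right, while most seed storage, heat stress and flavonoid genes lie below it, and PORA and PORB are the pair of chlorophyll genes far above it at the left.

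The difference moved with transcript length. Its median was 0.95 in transcripts of 301 to 500 nt, 0.35 in those of 701 to 1000 nt, -0.03 in those of 1501 to 2000 nt and -0.28 above 3000 nt. The length trend was mainly one of the pifq folds, whose medians in these classes were -0.60, -0.28, 0.03 and 0.20, while those of det1-1 were 0.12, 0.07, -0.05 and -0.13. Shorter transcripts did not keep this order. The median difference was -0.20 in 59 transcripts of 151 to 300 nt and 1.48 in 83 of up to 150 nt. Small nucleolar RNAs, which guide modification of ribosomal RNA, stood at a median log2 fold of 1.65 in det1-1 and -1.62 in pifq, and 30 of 35 passed 2-fold in the difference upward. Among them AT3G21805 was 1445 FPKM in det1-1 and 5.70 FPKM in pifq, against 769.8 and 909 FPKM in dark wild type. The part of transcript length in the results for short genes was not tested. Centring the difference on its median within 20 classes of length brought SAUR20, SAUR65, LUT2 and ELF3, described below, under 2-fold, at 0.94, 0.83, -0.95 and -0.91. It brought LATE, AT2G37870, KNOLLE and PCNA1 past 2-fold, at -1.24, -1.19, -1.06 and -1.15. Among the lists described below, it changed the number of genes past 2-fold downward most for photosystem, cell division and auxin genes. These became 6, 8 and 4, against 3, 3 and 2 without it. The number upward fell most for PIF-activated, cell wall and auxin genes, to 7, 4 and 5, against 9, 6 and 7. Counts moved less in some other lists, among them antenna, light signalling, gibberellin, carotenoid and clock genes.

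**Figure D2:**
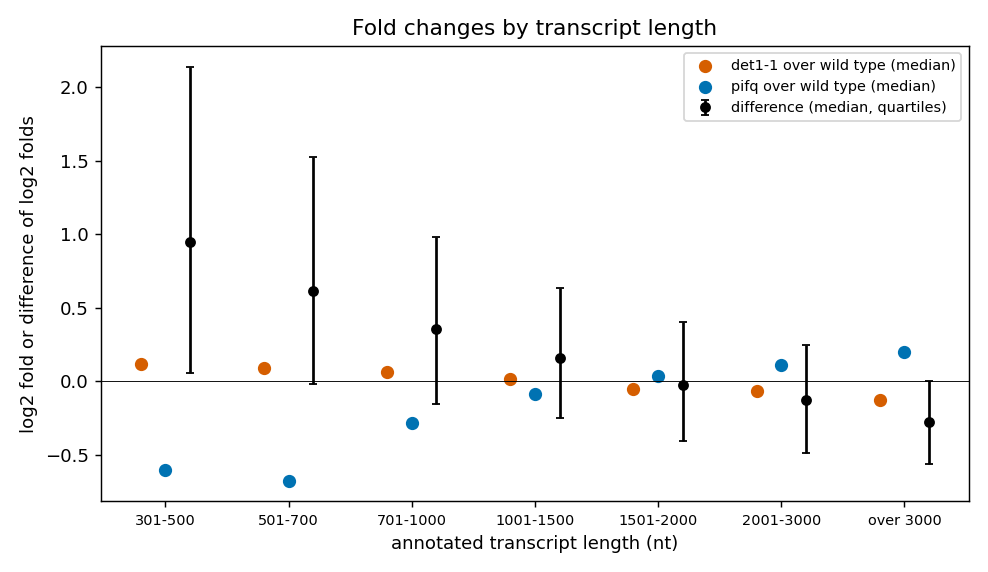
Median log2 folds of det1-1 and pifq over dark wild type, and the median difference with its quartiles as bars, in 7 classes of annotated transcript length (nt). Transcripts of up to 300 nt are not drawn. The median difference is 0.95 in the shortest class drawn and -0.28 in the longest.

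Nuclear genes of the photosynthetic machinery were high in both mutants. Photosystem subunits bind the chlorophyll and the electron carriers of the light reactions; 19 of the 27 genes listed could be compared, and all 19 were higher in det1-1 and all 19 in pifq. Their median log2 folds were 3.09 in det1-1 and 3.48 in pifq, the median difference was -0.26, and 15 lay within 2-fold of each other. PSAO, a subunit of photosystem I, was 1389 FPKM in det1-1 and 1428 FPKM in pifq, against 73.2 and 76.8 FPKM in dark wild type. PSBX of photosystem II was 2261 FPKM in det1-1 and 2247 FPKM in pifq, against 363 and 379 FPKM in dark wild type. The widest gap was in PSBQ-2 of the oxygen-evolving complex, at 140 FPKM in det1-1 and 789 FPKM in pifq, against 47.7 and 50.7 FPKM in dark wild type, a difference of -2.40. PSB27, a photosystem II assembly factor, went the other way, at 737 FPKM in det1-1 and 265 FPKM in pifq, against 86.4 and 90.8 FPKM in dark wild type, a difference of 1.55.

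Calvin cycle enzymes, which fix carbon dioxide in the stroma, were all higher in both mutants as far as compared, 8 of 16 listed. Their median log2 folds were 2.37 in det1-1 and 2.13 in pifq and the median difference was 0.06. GAPA, a subunit of the plastid glyceraldehyde phosphate dehydrogenase, was 926 FPKM in det1-1 and 928 FPKM in pifq, against 209 and 219 FPKM in dark wild type. PRK, the phosphoribulokinase, was 480 FPKM in det1-1 and 481 FPKM in pifq, against 212 and 222 FPKM in dark wild type. PGK1, a phosphoglycerate kinase, was the single member past 2-fold in the difference, at 1.09 (648 FPKM in det1-1, 337 FPKM in pifq, and 105 and 116 FPKM in dark wild type). The Rubisco small subunit genes RBCS1A, RBCS1B, RBCS2B and RBCS3B were listed at 0 in a column and could not be compared.

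The light-harvesting antenna, whose proteins pass light energy to the photosystems, was mostly higher in both mutants but leaned towards pifq. Of 21 antenna genes 11 were compared, and 10 were higher in det1-1 and 10 in pifq. The remaining gene was lower in pifq and within 2-fold of dark wild type in det1-1. The median log2 folds were 2.82 in det1-1 and 3.36 in pifq, with a median difference of -0.84, and 5 passed 2-fold in the difference downward, against 2 upward. LHCA1 matched most closely, at 1523 FPKM in det1-1 and 1387 FPKM in pifq, against 42.1 and 31.6 FPKM in dark wild type. LHCB1.2 was 464 FPKM in det1-1 and 5127 FPKM in pifq, against 28.8 and 44.5 FPKM in dark wild type, a difference of -2.84. Of its exonic 32-base words 24.0% occur elsewhere in the genome, so reads of the near-identical LHCB1 genes may have been shared among them. LHCB6 (410 FPKM in det1-1 and 1265 FPKM in pifq, against 58.1 and 61.4 FPKM in dark wild type) and LHCB5 (744 FPKM in det1-1 and 1927 FPKM in pifq, against 180 and 188 FPKM in dark wild type) also stood higher in pifq. LHCA5 and LHCB4.3, with differences of 1.47 and 1.77, stood higher in det1-1.

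Outside photosynthesis, the genes most raised in both mutants by a similar factor included regulators and secreted enzymes. LOX2, a plastid lipoxygenase of jasmonate synthesis, was 13.3 FPKM in det1-1 and 8.82 FPKM in pifq, against 0.0280 and 0.0294 FPKM in dark wild type. BBX25, a B-box transcriptional regulator of light responses, was 36.0 FPKM in det1-1 and 26.1 FPKM in pifq, against 0.342 and 0.378 FPKM in dark wild type. CGA1, a GATA factor that promotes chloroplast development, was 5.09 FPKM in det1-1 and 5.87 FPKM in pifq, against 0.0948 and 0.0992 FPKM in dark wild type. GER1, a germin-like protein of the cell wall, was 1686 FPKM in det1-1 and 1164 FPKM in pifq, against 37.7 and 39.3 FPKM in dark wild type. The other genes named by the same rule were AT1G26761, AT4G28780, ESM1 and LHCA1, with differences between -0.73 and -0.09. LOX2, BBX25, CGA1, AT1G26761 and AT4G28780 were under 1 FPKM in dark wild type. They entered only through a mutant's level, so a rise was required for them to be compared.

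The genes most lowered in both by a similar factor included BBX23, another B-box regulator, at 0.148 FPKM in det1-1 and 0.144 FPKM in pifq, against 11.0 and 11.6 FPKM in dark wild type. The SAUR-like gene AT4G13790, of a family of small auxin-responsive growth genes, was 1.19 FPKM in det1-1 and 1.18 FPKM in pifq, against 28.1 and 29.4 FPKM in dark wild type. OLEO3, an oleosin of seed oil bodies, was 3.51 FPKM in det1-1 and 2.58 FPKM in pifq, against 84.4 and 88.5 FPKM in dark wild type. LATE, a zinc finger protein, was 0.224 FPKM in det1-1 and 0.440 FPKM in pifq, against 8.35 FPKM in dark wild type of the pifq table. AT4G11610, CYP96A5, AT2G34020 and AT2G37870 completed the set, with differences between -0.82 and -0.47.

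Chlorophyll synthesis held the genes furthest towards pifq. PORA and PORB encode the light-dependent protochlorophyllide oxidoreductases, which carry out the reaction at which the pathway stops in darkness. PORA was 3.72 FPKM in det1-1 and 181 FPKM in pifq, against 161 and 173 FPKM in dark wild type. PORB was 29.7 FPKM in det1-1 and 1129 FPKM in pifq, against 214 and 235 FPKM in dark wild type. PORA was thus low in det1-1 alone of the dark groups, and PORB lay on opposite sides of wild type in the mutants; their differences, -5.50 and -5.11, were the lowest of all genes kept with at least 5 FPKM in a column. In wild type after 6 h of light PORA was 3.08 FPKM and PORB 65.5 FPKM. The gene for the remaining enzyme of this kind, PORC, has several entries in a table and was not compared.

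None of the other chlorophyll genes compared was lower in either mutant, and 3 more, HEMA1, HEMC and CAO, passed 2-fold in the difference downward. Of 23 listed 16 were compared; 10 were higher in det1-1 and 11 in pifq, the 2 lower in det1-1 were PORA and PORB, and 5 passed 2-fold in the difference, all downward, with a list median of -0.67. HEMA1, the glutamyl-tRNA reductase that opens the pathway, was 74.98 FPKM in det1-1 and 263 FPKM in pifq, against 22.2 and 23.4 FPKM in dark wild type. CAO, which makes chlorophyll b, was 24.5 FPKM in det1-1 and 90.1 FPKM in pifq, against 7.68 and 7.99 FPKM in dark wild type. HEMC, an early enzyme of tetrapyrrole synthesis, had a difference of -1.56. HEMB1, which encodes another early enzyme of tetrapyrrole synthesis, was alike, at 119 FPKM in det1-1 and 124 FPKM in pifq, against 34.9 and 37.5 FPKM in dark wild type. Carotenoid genes departed both ways. PSY, the phytoene synthase that opens the pathway, was 30.0 FPKM in det1-1 and 128 FPKM in pifq, against 12.8 and 13.1 FPKM in dark wild type, whereas ZEP, the zeaxanthin epoxidase, was 108 FPKM in det1-1 and 21.6 FPKM in pifq, against 20.9 and 20.4 FPKM in dark wild type. Of 10 carotenoid genes compared of 14 listed, 3 passed 2-fold in the difference upward (ZEP, LUT5 and BCH1) and 3 downward (PSY, CLA1 and LUT2).

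Flavonoid genes, whose products include ultraviolet-absorbing flavonols and anthocyanins, stood higher in det1-1 than in pifq. Of 22 listed 14 were compared, with median log2 folds of 3.96 in det1-1 and 0.91 in pifq and a median difference of 2.63; 9 passed 2-fold in the difference upward and none downward. CHS, the chalcone synthase that opens the pathway, was 411 FPKM in det1-1 and 8.26 FPKM in pifq, against 4.53 and 4.76 FPKM in dark wild type. In wild type after 6 h of light it was 1809 FPKM. CHI, the next enzyme, was 105 FPKM in det1-1 and 15.5 FPKM in pifq, against 7.24 and 7.59 FPKM in dark wild type. The flavonol regulator MYB12 was 7.48 FPKM in det1-1 and 0.133 FPKM in pifq, against 0.342 and 0.358 FPKM in dark wild type. The flavonol regulator MYB111 and the glucosyltransferase UGT78D1 were alike, at differences of 0.28 and -0.40. PAP1, an anthocyanin regulator, was lower in both, at 0.382 FPKM in det1-1 and 0.159 FPKM in pifq, against 1.64 and 1.71 FPKM in dark wild type. Of the 14 genes 8 were under 1 FPKM in dark wild type and entered only because a mutant was higher, and adding 1 FPKM to every value lowered the list median to 0.93.

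Light signalling factors split between the mutants. Of 27 listed 24 were compared. In det1-1 10 were higher and 4 lower, and in pifq 4 were higher and 10 lower. The difference passed 2-fold upward in 10 and downward in 3. Of the 24 genes 5 were under 1 FPKM in dark wild type and entered only where another column reached 1 FPKM. HY5 was 35.0 FPKM in det1-1 and 12.4 FPKM in pifq, against 27.4 and 28.8 FPKM in dark wild type, a difference of 1.57. ELIP1 and ELIP2 encode early light-induced proteins, which protect plastids from excess light: ELIP1 was 89.1 FPKM in det1-1 and 0.256 FPKM in pifq, against 3.23 and 3.39 FPKM in dark wild type, and ELIP2 was 123 FPKM in det1-1 and 2.74 FPKM in pifq, against 5.05 and 5.30 FPKM in dark wild type. After 6 h of light they were 1373 and 854 FPKM in wild type. BBX30 and BBX31 encode small B-box proteins. BBX30 was 42.5 FPKM in det1-1 and 0.0349 FPKM in pifq, against 0.761 and 0.801 FPKM in dark wild type, and BBX31 was 20.3 FPKM in det1-1 and 0.437 FPKM in pifq, against 0.874 and 0.918 FPKM in dark wild type.

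The B-box family was not uniform. BBX23 and BBX25 matched, as described, and BBX20, BBX21 and BBX19 also had differences under 2-fold, between -0.38 and 0.54. BBX14, BBX15 and BBX4 stood much higher in pifq. BBX14 was 19.0 FPKM in det1-1 and 188 FPKM in pifq, against 16.0 and 16.8 FPKM in dark wild type. BBX15 was 6.31 FPKM in det1-1 and 88.9 FPKM in pifq, against 6.64 and 6.98 FPKM in dark wild type. In both genes det1-1 lay beside wild type and pifq stood alone. BBX4 was 103 FPKM in det1-1 and 396 FPKM in pifq, against 154 and 162 FPKM in dark wild type, a difference of -1.88.

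**Figure D3:**
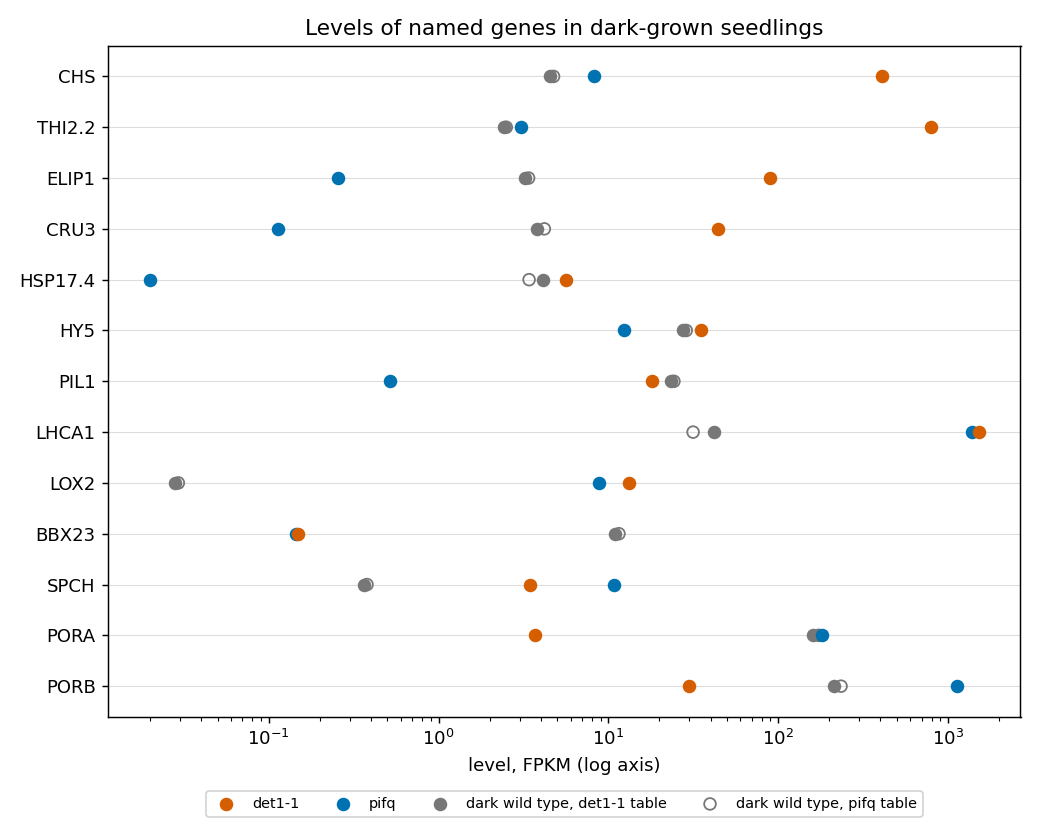
Levels of 13 genes in FPKM (log axis) in det1-1, pifq and dark wild type, the last drawn for each table. det1-1 and pifq lie within 2-fold of each other for LHCA1, LOX2 and BBX23 and far apart for CHS, THI2.2, ELIP1, CRU3 and the POR genes.

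Seed maturation genes gave the highest median difference of the 27 lists. They encode storage proteins, oil body coats and protectants of the dry embryo, and their transcripts normally disappear after germination. Of 21 listed 17 were compared. In det1-1 11 were higher and 1 was lower, in pifq none was higher and 15 were lower, and the difference passed 2-fold upward in 15, with a median of 5.06. CRU3, a cruciferin storage globulin, was 44.3 FPKM in det1-1 and 0.113 FPKM in pifq, against 3.79 and 4.20 FPKM in dark wild type. SESA1, a storage albumin, was 7.86 FPKM in det1-1 and 0.0358 FPKM in pifq, against 0.781 and 0.818 FPKM in dark wild type, and SESA2, SESA3, SESA4 and SESA5 had differences between 5.06 and 6.29. Dark wild type lay between the mutants for these storage genes. The dormancy regulator DOG1 was raised in det1-1 only, at 8.23 FPKM in det1-1 and 0.106 FPKM in pifq, against 0.105 and 0.108 FPKM in dark wild type. OLEO3 was the exception, being lower in both. Of the 17 genes 6 were under 1 FPKM in dark wild type and entered only where another column reached 1 FPKM. SESA1 and DOG1 entered only through their det1-1 level, so a rise there was required for them to be compared. Among all 869 compared genes at up to 1 FPKM in dark wild type (geometric mean of both tables), 35.9% passed 2-fold upward and 17.7% downward. The list's median difference centred within length classes was 4.63.

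Genes for heat stress chaperones, which keep damaged proteins soluble, had the next highest median. Of 12 listed 8 were compared; 6 were higher and 1 lower in det1-1, none was higher and 7 were lower in pifq, and 7 passed 2-fold in the difference upward, with a median of 4.79. HSP17.6II, a cytosolic small heat shock protein, was 7.72 FPKM in det1-1 and 0.171 FPKM in pifq, against 2.13 and 2.23 FPKM in dark wild type. HSP17.4 was 5.61 FPKM in det1-1 and 0.0200 FPKM in pifq, against 4.10 and 3.42 FPKM in dark wild type, so pifq alone departed from wild type. HSP70 was 64.1 FPKM in det1-1 and 16.0 FPKM in pifq, against 31.9 and 33.6 FPKM in dark wild type. HSP22.0 was low in both, at 0.238 FPKM in det1-1 and 0.0101 FPKM in pifq, against 1.44 and 1.51 FPKM in dark wild type. Most levels here are a few FPKM, and adding 5 FPKM to every value lowered the list median to 0.91.

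Genes of the abscisic acid, cold and drought responses were lower in pifq and less so, or not, in det1-1. Of 22 listed 12 were compared; none was higher in either mutant, 4 were lower in det1-1 and 11 in pifq, and 6 passed 2-fold in the difference upward. KIN1, a cold-induced protein, was 60.3 FPKM in det1-1 and 3.46 FPKM in pifq, against 44.9 and 51.0 FPKM in dark wild type. RAB18, a dehydrin, was lower in both but unequally, at 28.4 FPKM in det1-1 and 2.96 FPKM in pifq, against 98.6 and 105 FPKM in dark wild type. The phosphatase gene ABI1 was alike, at 30.0 FPKM in det1-1 and 29.0 FPKM in pifq, against 72.7 and 76.5 FPKM in dark wild type.

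Promoters of 10 genes are shown for comparison, as members that moved together or apart. The windows are the 250 bases before the annotated start of each gene, read from the TAIR10.1 assembly with the RefSeq annotation by locus identifier. Capitals mark 4 motifs searched on both strands. The G-box CACGTG and CACATG are both known to be bound by PIFs. The heat shock element was searched as GAANNTTC and the RY repeat of seed genes as CATGCA, and this last pair was added after values had been seen. PORA (chr5:21992815-21993064, minus strand) and PORB (chr4:13725296-13725545, plus strand) held none of the 4, and are shown as the genes furthest towards pifq. CHS (chr5:4488226-4488475, plus strand), BBX30 (chr4:8708591-8708840, plus strand), CRU3 (chr4:14087306-14087555, plus strand), HSP17.4 (chr3:16984868-16985117, minus strand), HSP17.6II (chr5:3883112-3883361, minus strand) and PIL1 (chr2:19297859-19298108, minus strand) stood higher in det1-1 than in pifq, and PIL1 held none of the 4 motifs. LHCA1 (chr3:20341177-20341426, minus strand) was higher in both. AT4G13790 (chr4:8000373-8000622, minus strand) was equally low in both; there CACATG and a pair of RY repeats overlap.
PORA: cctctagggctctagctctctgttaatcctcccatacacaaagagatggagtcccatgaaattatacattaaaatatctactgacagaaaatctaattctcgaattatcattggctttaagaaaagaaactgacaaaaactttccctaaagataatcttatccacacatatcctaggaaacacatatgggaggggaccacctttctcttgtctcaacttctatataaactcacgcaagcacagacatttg
PORB: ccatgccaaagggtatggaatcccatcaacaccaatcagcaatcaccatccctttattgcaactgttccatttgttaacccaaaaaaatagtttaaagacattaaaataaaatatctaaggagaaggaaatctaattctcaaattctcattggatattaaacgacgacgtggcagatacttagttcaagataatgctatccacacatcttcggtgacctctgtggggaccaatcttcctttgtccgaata
CHS: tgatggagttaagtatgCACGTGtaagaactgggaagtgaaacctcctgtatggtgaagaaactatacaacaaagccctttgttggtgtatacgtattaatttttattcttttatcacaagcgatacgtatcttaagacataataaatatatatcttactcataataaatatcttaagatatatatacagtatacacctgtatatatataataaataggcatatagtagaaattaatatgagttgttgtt
BBX30: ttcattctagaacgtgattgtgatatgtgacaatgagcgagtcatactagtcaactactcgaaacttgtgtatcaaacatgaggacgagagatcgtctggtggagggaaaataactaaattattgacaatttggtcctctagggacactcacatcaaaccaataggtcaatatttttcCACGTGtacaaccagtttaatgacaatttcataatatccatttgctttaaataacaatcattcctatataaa
CRU3: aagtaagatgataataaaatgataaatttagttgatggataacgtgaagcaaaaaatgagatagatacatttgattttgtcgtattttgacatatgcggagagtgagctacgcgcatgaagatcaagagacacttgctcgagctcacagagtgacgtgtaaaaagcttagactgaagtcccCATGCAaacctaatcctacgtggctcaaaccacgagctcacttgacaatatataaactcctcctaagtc
HSP17.4: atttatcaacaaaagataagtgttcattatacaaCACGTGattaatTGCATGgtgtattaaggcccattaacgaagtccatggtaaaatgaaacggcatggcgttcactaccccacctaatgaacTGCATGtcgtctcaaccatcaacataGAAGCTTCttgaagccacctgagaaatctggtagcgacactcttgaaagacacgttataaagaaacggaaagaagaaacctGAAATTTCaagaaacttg
HSP17.6II: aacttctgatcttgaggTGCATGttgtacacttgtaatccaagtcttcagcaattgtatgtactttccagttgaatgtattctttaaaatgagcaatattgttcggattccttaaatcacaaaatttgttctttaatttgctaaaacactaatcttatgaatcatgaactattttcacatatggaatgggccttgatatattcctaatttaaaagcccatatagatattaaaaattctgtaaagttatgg
PIL1: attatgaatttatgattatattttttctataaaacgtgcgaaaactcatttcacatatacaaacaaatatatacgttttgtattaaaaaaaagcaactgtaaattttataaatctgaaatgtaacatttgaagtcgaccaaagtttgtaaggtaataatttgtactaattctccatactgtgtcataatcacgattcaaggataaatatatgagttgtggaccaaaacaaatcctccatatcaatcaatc
LHCA1: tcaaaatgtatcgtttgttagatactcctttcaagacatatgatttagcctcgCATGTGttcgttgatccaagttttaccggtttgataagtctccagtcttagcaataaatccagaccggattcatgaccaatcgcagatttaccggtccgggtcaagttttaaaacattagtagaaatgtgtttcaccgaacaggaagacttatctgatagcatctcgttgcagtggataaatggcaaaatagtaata
AT4G13790: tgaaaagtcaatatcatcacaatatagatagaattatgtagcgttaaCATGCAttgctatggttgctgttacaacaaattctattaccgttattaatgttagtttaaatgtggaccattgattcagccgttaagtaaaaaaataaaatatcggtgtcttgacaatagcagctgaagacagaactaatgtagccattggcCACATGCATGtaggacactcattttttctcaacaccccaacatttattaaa

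The G-box begins 233 bases before the start in CHS, 72 in BBX30 and 216 in HSP17.4, and the RY repeat of CRU3 begins 69 bases before it. HSP17.4 also holds heat shock elements 99 and 18 bases before its start and RY repeats at 204 and 125. HSP17.6II holds no match to GAANNTTC in its window and a single RY repeat, at 233. In LHCA1 CACATG begins 197 bases before the start. Over all 27443 protein-coding genes of the annotation, 6.49% of such windows held a G-box, 11.1% CACATG, 9.55% the heat shock element and 8.43% the RY repeat. Over the 13868 protein-coding genes compared, from which the classes below were drawn, the shares were 7.69%, 11.3%, 9.24% and 8.08%. Of 140 protein-coding genes higher in det1-1 and lower in pifq, 26 (18.6%) held a G-box, 29 (20.7%) CACATG, 14 the heat shock element and 31 (22.1%) the RY repeat. Among 632 genes lower in both with a difference under 2-fold the shares in the same order were 8.07%, 17.2%, 9.34% and 15.03%. Among 936 genes higher in both with a difference under 2-fold they were 6.62%, 10.5%, 7.69% and 7.48%. Of the 17 seed maturation genes 9 held a G-box, 8 CACATG, none the heat shock element and 10 an RY repeat. Of the 8 heat stress genes 2 held a G-box, none CACATG, 2 a match to GAANNTTC and 3 the RY repeat. Only this form of the heat shock element was searched. Of the 14 flavonoid genes 3 held a G-box, 1 CACATG, 2 the heat shock element and 4 the RY repeat. Of the 25 PIF-activated genes 1 held a G-box, 9 CACATG, 2 the heat shock element and 3 the RY repeat. No cell division or stomatal gene held a G-box; CACATG stood in 3 of 12 and 3 of 9, the heat shock element in 1 and none, and the RY repeat in none and 2. These matches describe letters in a window and were not tested.

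Genes that PIFs are known to activate, among them shade and growth genes, had similar medians in both mutants but did not match member by member. Of 28 listed 25 were compared; 1 was higher and 13 were lower in det1-1, none was higher and 15 were lower in pifq, and the median log2 folds were -1.16 in det1-1 and -1.40 in pifq. Gene by gene the median difference was -0.34, of the other sign than the gap between these medians, and it was 0.27 without genes that overlap another gene. The difference passed 2-fold upward in 9 and downward in 3, and in 7 and 4 after centring within length classes. PIL1 and HFR1, bHLH proteins induced by shade, were near wild type in det1-1 and low in pifq. PIL1 was 18.2 FPKM in det1-1 and 0.516 FPKM in pifq, against 23.2 and 24.3 FPKM in dark wild type, and HFR1 was 58.0 FPKM in det1-1 and 2.56 FPKM in pifq, against 84.5 and 88.0 FPKM in dark wild type. XTH15, which remodels cell wall xyloglucan, was lower in both, at 189 FPKM in det1-1 and 59.0 FPKM in pifq, against 1017 and 1064 FPKM in dark wild type. HEC2, another bHLH gene, was lower in det1-1 than in pifq, at 0.647 FPKM in det1-1 and 8.51 FPKM in pifq, against 42.6 and 44.5 FPKM in dark wild type. FHL, which carries phytochrome A into the nucleus, was alike, at 4.90 FPKM in det1-1 and 4.73 FPKM in pifq, against 11.9 and 12.5 FPKM in dark wild type.

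**Figure D4:**
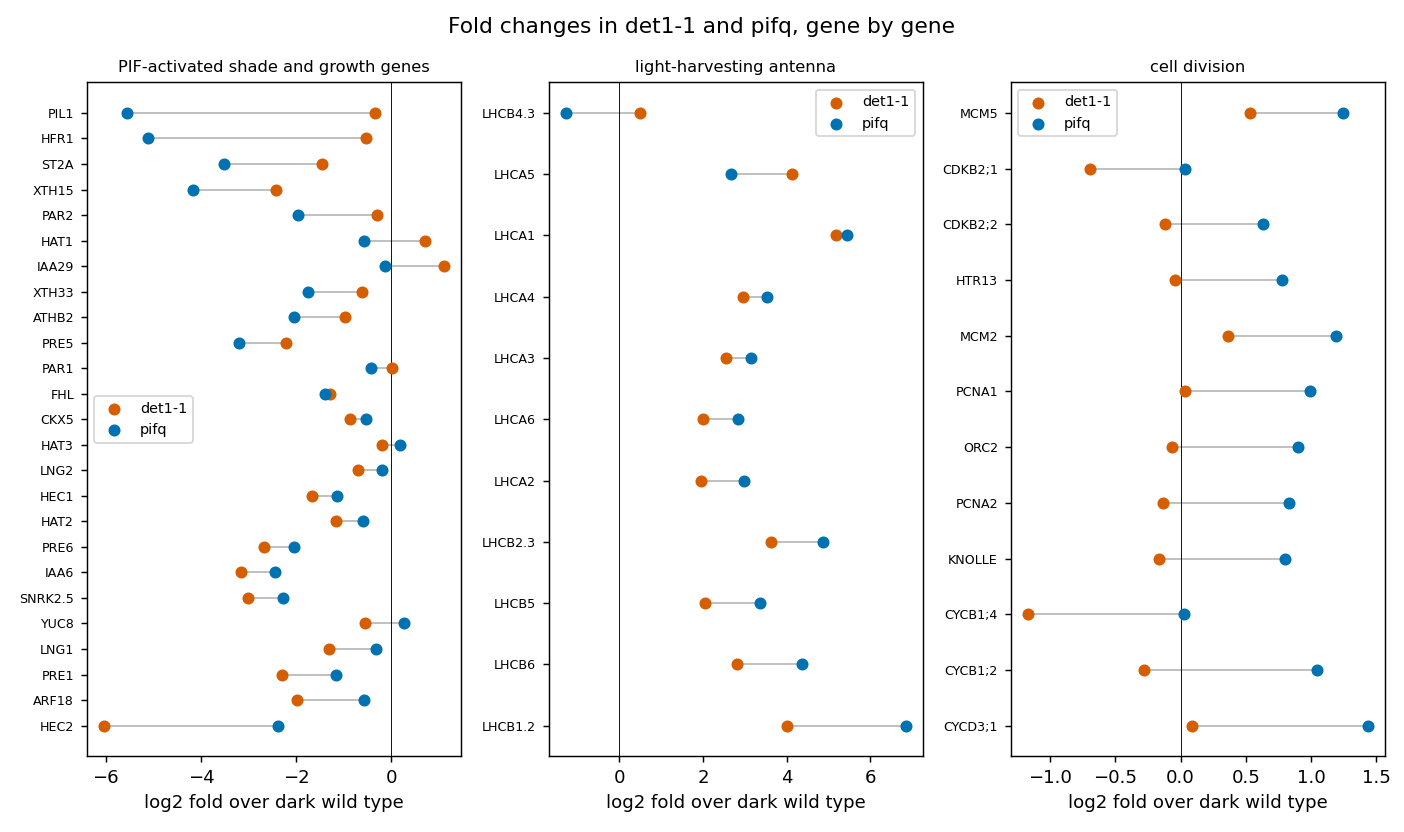
Log2 folds over dark wild type of det1-1 and pifq, joined per gene by a line, for 25 PIF-activated genes, 11 antenna genes and 12 cell division genes, each panel sorted by the difference. PIL1 and HFR1 have the longest lines among the PIF-activated genes, and every cell division gene has pifq to the right of det1-1.

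Auxin genes departed in part, with a median difference of 0.16, which was -0.03 after centring within length classes and -0.08 without transcripts under 700 nt. Of 29 compared of 36 listed, the difference passed 2-fold upward in 7 and downward in 2, against 12.8% and 6.72% of all genes; centring left 5 upward. SAUR24 was 62.6 FPKM in det1-1 and 13.9 FPKM in pifq, against 63.2 and 84.9 FPKM in dark wild type, and SAUR22 was 33.0 FPKM in det1-1 and 8.99 FPKM in pifq, against 41.5 and 46.7 FPKM in dark wild type; reads of these near-identical SAUR genes may have been shared, with 24.7% and 9.50% of their 32-base words found elsewhere. SAUR16, SAUR20, SAUR65 and SAUR66 also stood higher in det1-1, with differences between 1.16 and 1.95, while SAUR9, SAUR10 and SAUR14 lay between -0.69 and 0.32. IAA17, an auxin response repressor, was alike, at 88.7 FPKM in det1-1 and 83.3 FPKM in pifq, against 315 and 331 FPKM in dark wild type.

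Among 20 cell wall loosening genes compared of 21 listed, 6 passed 2-fold in the difference upward and 2 downward. Centring within length classes left 4 upward. Of all genes, 12.8% passed 2-fold in the difference without centring upward and 6.72% downward. The counts of the gibberellin list and of the ethylene and hook list, given below, lay near these shares. XTH22 was 245 FPKM in det1-1 and 35.0 FPKM in pifq, against 26.4 and 27.6 FPKM in dark wild type, and XTH24 was 859 FPKM in det1-1 and 208 FPKM in pifq, against 814 and 855 FPKM in dark wild type. EXPA4, an expansin, was alike, at 30.7 FPKM in det1-1 and 41.6 FPKM in pifq, against 96.8 and 101 FPKM in dark wild type. In gibberellin metabolism GA3OX1, which makes active hormone, was alike, at 4.03 FPKM in det1-1 and 5.97 FPKM in pifq, against 30.0 and 31.3 FPKM in dark wild type. The inactivating oxidase GA2OX1 was not, at 2.94 FPKM in det1-1 and 0.180 FPKM in pifq, against 0.0972 and 0.102 FPKM in dark wild type; 3 of 17 gibberellin genes passed 2-fold in the difference upward and 2 downward. HLS1, needed for the apical hook, was lower in det1-1 than in pifq, at 1.03 FPKM in det1-1 and 4.87 FPKM in pifq, against 10.2 and 10.7 FPKM in dark wild type. ACO4, an enzyme that makes ethylene, was higher in both but unequally, at 721 FPKM in det1-1 and 230 FPKM in pifq, against 92.5 and 97.1 FPKM in dark wild type; these were the members of 13 ethylene and hook genes past 2-fold in the difference.

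Of 14 clock genes compared of 20 listed, 4 passed 2-fold in the difference upward (LNK1, LNK2, FKF1 and ELF4) and 1 downward (ELF3). The shares of all genes were 12.8% upward and 6.72% downward, and the clock counts rest on few genes. LNK1, a coactivator of evening genes, was 19.1 FPKM in det1-1 and 0.722 FPKM in pifq, against 4.23 and 4.47 FPKM in dark wild type. FKF1, a blue-light receptor of the clock, was 13.0 FPKM in det1-1 and 2.12 FPKM in pifq, against 1.40 and 1.52 FPKM in dark wild type. ELF4, of the evening complex, was 66.5 FPKM in det1-1 and 11.5 FPKM in pifq, against 15.7 and 16.5 FPKM in dark wild type. LHY, a morning factor, was alike, at 33.4 FPKM in det1-1 and 38.2 FPKM in pifq, against 13.2 and 14.0 FPKM in dark wild type.

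Genes for plastid transcription were higher in both mutants, 7 of 7 compared in det1-1 and 6 of 7 in pifq, of 12 listed. SIG6, a sigma factor of the plastid RNA polymerase, was alike, at 33.3 FPKM in det1-1 and 33.2 FPKM in pifq, against 9.94 and 10.4 FPKM in dark wild type. SIG5, a light- and stress-responsive sigma factor, was not, at 39.8 FPKM in det1-1 and 3.93 FPKM in pifq, against 1.38 and 1.44 FPKM in dark wild type. FLN1 and FLN2, fructokinase-like partners of the polymerase, also passed 2-fold in the difference, at 1.48 and 1.55.

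Stomatal lineage and cell division genes leaned towards pifq. Of 12 stomatal genes listed 9 were compared; 5 were higher in det1-1 and 6 in pifq, and 5 passed 2-fold in the difference, all downward, with a median of -1.38. SPCH, which starts the lineage, was 3.45 FPKM in det1-1 and 10.9 FPKM in pifq, against 0.362 and 0.379 FPKM in dark wild type. EPF2, a signal that restricts the lineage, was 2.01 FPKM in det1-1 and 6.74 FPKM in pifq, against 0.233 and 0.242 FPKM in dark wild type. STOMAGEN, a signal from the mesophyll, was alike, at 37.9 FPKM in det1-1 and 40.4 FPKM in pifq, against 26.9 and 28.2 FPKM in dark wild type. Of the 9 genes 4 were under 1 FPKM in dark wild type and entered only where another column reached 1 FPKM. Adding 1 FPKM to every value brought the list median to -0.81.

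All 12 cell division genes compared of 15 listed had a negative difference, between -1.35 and -0.71, although only 3 passed 2-fold. CYCD3;1, a cyclin of cell cycle entry, was 8.40 FPKM in det1-1 and 22.4 FPKM in pifq, against 7.91 and 8.29 FPKM in dark wild type. KNOLLE, a syntaxin of the cell plate, was 13.1 FPKM in det1-1 and 26.6 FPKM in pifq, against 14.7 and 15.3 FPKM in dark wild type. PCNA1, the sliding clamp of replication, was 6.90 FPKM in det1-1 and 15.4 FPKM in pifq, against 6.74 and 7.75 FPKM in dark wild type. In each of these det1-1 lay within 2-fold of wild type, as did pifq for KNOLLE and PCNA1. Of the 12 genes 4 were higher in pifq and 1 was lower in det1-1. These lists leaned the same way as the antenna and chlorophyll lists, with medians of -0.96, -1.38, -0.84 and -0.67 for cell division, stomatal lineage, antenna and chlorophyll synthesis, and their part in those results was not tested.

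**Figure D5:**
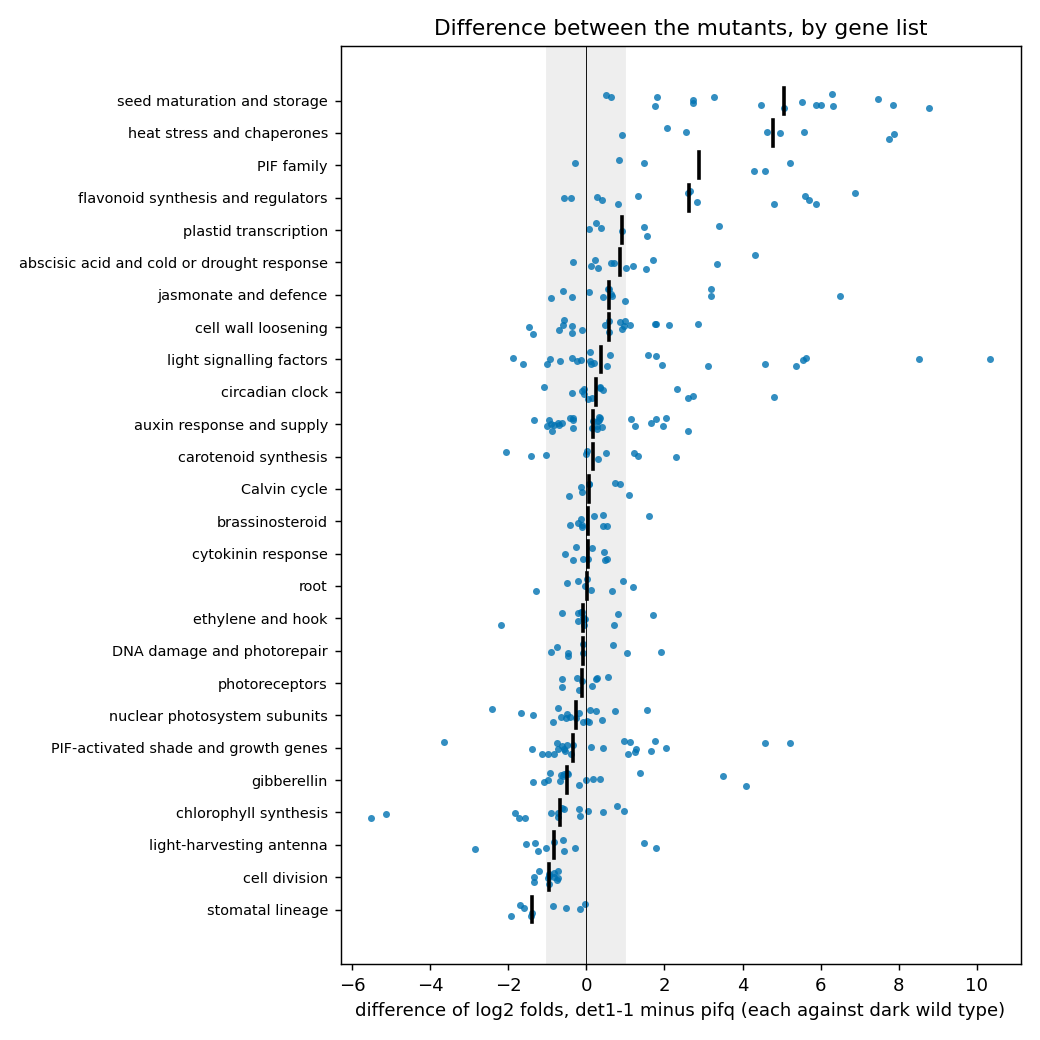
Difference of log2 folds, det1-1 minus pifq, for the compared genes of the lists described (dots), with each list's median as a bar and the range under 2-fold shaded. Seed maturation and heat stress lie at the top with medians of 5.06 and 4.79, and cell division and stomatal lineage at the bottom with -0.96 and -1.38.

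The remaining lists held from 0 to 3 genes past 2-fold in the difference, where 12.8% of all genes passed it upward and 6.72% downward. None of 9 photoreceptor genes and none of 9 cytokinin genes passed 2-fold in the difference. Of 10 brassinosteroid genes BEE3, a bHLH gene, passed it upward, and of 9 root genes SHR passed it downward and EXPA7 upward. Of 9 DNA damage genes SMR7 and DDB2 passed it upward, with a list median of -0.08 that was 0.86 at a minimum of 5 FPKM. Of 13 jasmonate and defence genes PR5, VSP1 and VSP2 passed it upward, and the list median was 0.58. These shares, of 2 in 9 and 3 in 13, lie above that of all genes but rest on few genes. PR5 was 5.24 FPKM in det1-1 and 0.0610 FPKM in pifq, against 0.0181 and 0.0190 FPKM in dark wild type. It entered only through its det1-1 level, so a rise there was required. Of the 13 jasmonate and defence genes 3 were under 1 FPKM in dark wild type. Among all compared genes at up to 1 FPKM in dark wild type, 35.9% passed 2-fold upward and 17.7% downward.

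Across all genes at 1 FPKM or more in both mutants, the protein-coding genes furthest towards det1-1 included a defence gene and a copper protein. THI2.2, an antimicrobial thionin, was 791 FPKM in det1-1 and 3.05 FPKM in pifq, against 2.42 and 2.51 FPKM in dark wild type. BCB, a blue copper-binding protein, was 505 FPKM in det1-1 and 2.54 FPKM in pifq, against 4.25 and 4.44 FPKM in dark wild type. Both lay within 2-fold of wild type in pifq and far above it in det1-1. DEG14, a protease, was 228 FPKM in det1-1 and 4.36 FPKM in pifq, against 58.6 and 62.1 FPKM in dark wild type; it overlaps AT5G04415 on the other strand, and whether counting used the strand was not given in the sources used here. CHS, ELIP2 and AT1G65541, which overlaps AT1G65540 on the other strand, completed the upper set, together with the small nucleolar RNAs AT3G21805, AT3G27865, AT2G43141 and AT3G24612.

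Without a minimum in the mutants, CIPK20 had the highest difference, 11.16, at 50.6 FPKM in det1-1 and 0.0231 FPKM in pifq, against 0.0962 and 0.101 FPKM in dark wild type. CIPK20 is a protein kinase that partners calcium sensors, and after 6 h of light it was 0.586 FPKM in wild type. AT3G44450 and AT5G55570 followed BBX30, with 45.5 and 12.1 FPKM in det1-1 and 0.0546 and 0.0209 FPKM in pifq. The genes most opposite in direction were CIPK20, BBX30, AT3G44450, CRU3, AT3G52740 and AT1G78720. Each was at least 2-fold above dark wild type in det1-1 and at least 2-fold below it in pifq. All of these but CRU3, and also AT5G55570, were under 1 FPKM in dark wild type and in pifq. They entered only through their det1-1 level, so a rise there was required, and their pifq folds compare levels below 1 FPKM.

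Below PORA and PORB, the genes furthest towards pifq included AT5G48490, a lipid-transfer family protein, at 19.4 FPKM in det1-1 and 618 FPKM in pifq, against 2.23 and 2.34 FPKM in dark wild type. QQS, a gene known for its effect on leaf starch, was 6.87 FPKM in det1-1 and 70.7 FPKM in pifq, against 0.747 and 0.780 FPKM in dark wild type. Both were higher in both mutants, and by far more in pifq. PAP29, a purple acid phosphatase, was 1.57 FPKM in det1-1 and 21.9 FPKM in pifq, against 10.6 and 11.1 FPKM in dark wild type, and so lay on opposite sides of wild type, although its pifq fold stayed just under 2. The precursor of miR396b was 1.23 FPKM in det1-1 and 16.6 FPKM in pifq, against 5.75 and 6.01 FPKM in dark wild type. AT1G10657, AT5G35940, BBX14, BBX15 and AT4G04408 completed the lower set. AT1G29100, AT1G12010 and AT5G64110, a peroxidase family gene, were lower in det1-1 and higher in pifq, as were PORB, the miR396b precursor and AT5G35940.

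The conditions on the set left some genes out. Of 28797 genes with a single entry in each table, 9508 were at 0 in a column, 3027 were under 1 FPKM throughout and 2005 had dark wild type levels more than 1.5-fold apart. At 0 in det1-1 alone with at least 5 FPKM elsewhere were 18 genes, and at 0 in pifq alone 47, for which no fold can be given. At the limit on wild type, AT5G38340 lay just inside at 1.4999-fold and PIP1;4 just outside at 1.50005-fold. At the minimum level, AT3G14580 lay just inside at 1.00024 FPKM and AT3G08636 just outside at 0.99992 FPKM. Of 494 genes in the 27 lists, 354 were compared; 55 were not in both tables, 33 were out for their wild type levels, 18 were under 1 FPKM, 17 were at 0 in a column and 17 had several entries.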

How the data were processed

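Seeds had 3 days at 4 °C and 12 h of light before 4 days of dark growth; RNA of whole seedlings was sequenced on Illumina libraries, per the labels' protocols. TopHat, Cufflinks and the TAIR10 build come from the submitters' processing notes; their versions, settings and use of strand are not given in the sources used here. Deposited were the authors' FPKM, a single one per group for each gene, beside a log2 ratio read here as a score, because extreme values stand where a group is 0. The log2 ratio was used only to check the FPKM columns, from which it differed by at most 0.0015 in the det1-1 table and 0.0074 in the pifq table. Headers do not name FPKM, which was inferred from Cufflinks and the values.

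Log2 folds were computed without a pseudocount, and the pifq table was scaled by the median dark wild type ratio, 1.05, for the 1.5-fold condition only. Tests had been planned for replicate values and could not be run on single values. Genes are named by rule: the targeted genes and HY5, the extremes of the difference, genes alike in both or opposite, and up to 4 differing and 2 alike members per list. CHI, PAP1, HSP70, STOMAGEN, KNOLLE, PCNA1, SAUR9, SAUR14, SAUR20, SAUR65, HEMC, LHCB5, BCH1, LUT2, ELF3, SESA2 to SESA5, BBX4 and BBX19 to BBX21 were added after their values had been seen. Members and lists were chosen with earlier results of these data known. Entries without a gene name (291 and 231) were left out; they held 1.79% of the FPKM sum of det1-1 and 1.05% of that of pifq, and 15.3% and 10.5% of that of dark wild type. The calculation was checked on simulated data. Python 3.11.15 and pandas 2.3.3 were used. Results for 1 of the gene lists and for some single genes are not reported here.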

Additional observations from a re-analysis of the deposited data

How the results depend on the processing

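No paired analysis was possible because the tables give a single value per gene and group, and for the same reason no replicate could be left out; those alternatives were not run. No list median or named gene past 2-fold changed sign under any alternative run. Medians under 2-fold changed sign in 7 lists: PIF-activated genes (0.27 without overlapping genes, against -0.34), photoreceptors (0.19 with centring by length, against -0.12), auxin (-0.08 without short transcripts, against 0.16), DNA damage (0.86 with the 5 FPKM minimum, against -0.08), ethylene and hook, cytokinin and root. So did 10 named genes under 2-fold. With 1 FPKM added to every value, 475 genes passed 2-fold in the difference downward, against 958 without it. With 5 FPKM added, 865 passed it upward and 169 downward, and against dark wild type 1233 were higher and 513 lower in det1-1, and 728 higher and 900 lower in pifq. Requiring 5 FPKM in a column left 571 genes past 2-fold downward, and no minimum level gave 1646. Adding a constant shrinks the folds of low genes by construction; depth behind low FPKM is unknown.

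Among list medians, 7 lists crossed 2-fold somewhere. Flavonoid synthesis was 0.93 with 1 FPKM added and 0.31 with 5, heat stress 0.91 with 5, and stomatal lineage -0.81 with 1, -0.57 with 5 and -0.84 with the 5 FPKM minimum. Abscisic acid and cold response was 1.02 with no limit on wild type. The following were chosen after seeing the data: centring within 20 classes of transcript length gave -1.03 for antenna, 1.22 for plastid transcription and -1.10 for cell division, and leaving out overlapping genes gave 1.48 for plastid transcription. Leaving out transcripts under 700 nt moved no list median across 2-fold. Of 159 named genes with a value, 128 had the same call under every alternative; DDB2, HSP22.0 and MUTE lost theirs with 1 FPKM added and 27 with 5.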

Other observations

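Some further families, grouped by the product names of the annotation and picked after their values were seen, departed between the mutants. Of all genes compared, 12.8% passed 2-fold in the difference upward and 6.72% downward. Of 24 genes with late embryogenesis abundant products, which protect drying tissue, 14 passed 2-fold in the difference upward and 1 downward. Their median log2 folds were -0.02 in det1-1 and -1.34 in pifq. The late embryogenesis abundant hydroxyproline-rich glycoproteins, grouped apart, had medians of -0.56 in det1-1 and -0.51 in pifq. Of these 27 genes 2 passed 2-fold in the difference upward and 3 downward. Of 12 genes named for root hair specificity 8 passed it upward and none downward, with medians of 0.61 in det1-1 and -0.65 in pifq. Of 44 genes of the lipid-transfer type 22 passed it upward and 2 downward, with medians of 0.35 in det1-1 and -0.94 in pifq; their median transcript length was 840.5 nt, and centring within length classes brought the median difference of 1.02 to 0.57. Of 20 genes with cyclin products 7 passed it downward and 1 upward, with medians of 0.00 in det1-1 and 0.52 in pifq.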
